A study of Mus musculus with 72 samples.

Results

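The 32 genes described here encode the secreted products of pancreatic acinar cells, namely digestive enzymes, their inhibitor and the proteins of their storage granules, together with Rbpjl and Bhlha15, 2 transcription factors of those cells. They were taken from a list of 34 named genes, of which 31 had a row in the deposited table of 14604 genes, and from the rule that further members of the trypsinogen, elastase, carboxypeptidase and pancreatic lipase families with a row also enter, which added 1 gene. Prss1, Cela3a and Dnase1, the remaining names of the list, are not analysed here. The samples were mouse pancreatic islets, the clusters of hormone-secreting cells within the pancreas, from C57BL/6J mice (the sample labels read C56BL/6J), DBA/2J mice and BALB/cJ mice on either of 2 diets, regular chow (RC) or one high in fat (HFD), at day 5, 13 or 33. All mice were males labelled as 8 weeks old, and each library came from 120 to 150 islets of 1 mouse, picked by hand and kept in culture overnight. Of 72 samples, 69 had a column in the table, in 18 groups of 4 mice (15 groups) or 3 mice (3 groups): 23 libraries from C57BL/6J, 22 from DBA/2J and 24 from BALB/cJ. The series text gives the last time point as 13 days, while the sample labels used here give 33.

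Acinar cells synthesise most digestive enzymes as inactive precursors, pack them into zymogen granules and release them into the duct, and the enzymes become active in the gut. Trypsin activates the other proteases, and Spink1 encodes the inhibitor that holds trypsin in check inside the pancreas. Transcription of these genes depends on PTF1, a complex of PTF1A, an E protein and RBPJL, which binds an E-box next to a TC-box, and on BHLHA15 (also called MIST1), a factor of granule maturation in secretory cells.

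To show the promoter letters that these genes share, reference sequence upstream of the annotated start was read for the members with a RefSeq promoter entry (25 of 32, GRCm38.p6, 250 bases before the first listed start). The E-box CACCTG, searched on both strands, was found in 15 of 25 members (60%) and in 4620 of 27025 genes (17.1%). The general E-box CANNTG was found in 20 of 25 members (80%) and in 66.0% of all genes. The TC-box TGGGAA, also on both strands, was found in 15 of 25 members (60%) and in 21.5% of all genes. CACCTG and TGGGAA both stood, at any distance within the 250 bases, in 7 of 25 members (28%) and in 3.87% of all genes. Adjacent motifs were not required, and the letters of the 2 motifs do not overlap in the sequences below. The 200 bases before the start of 5 members are shown, 5′ to 3′, with both motifs in capitals on either strand. Cel, with the most copies of the E-box among the 5, encodes bile salt-stimulated lipase, Rbpjl encodes the PTF1 subunit itself, and Prss2, the most abundant trypsinogen here per length of exon, has both motifs. Cela1, an elastase, has the E-box without the TC-box, and so does Bhlha15, the member whose level moved least with the others. The 5 were picked after these matches were known, and a match describes letters, not binding.
Cel, chr2:28563404-28563603, minus strand: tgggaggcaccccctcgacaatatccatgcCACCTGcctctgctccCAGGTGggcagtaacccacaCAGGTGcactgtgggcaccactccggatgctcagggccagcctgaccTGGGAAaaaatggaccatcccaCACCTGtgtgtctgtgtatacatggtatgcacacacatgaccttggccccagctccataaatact
Rbpjl, chr2:164402994-164403193, plus strand: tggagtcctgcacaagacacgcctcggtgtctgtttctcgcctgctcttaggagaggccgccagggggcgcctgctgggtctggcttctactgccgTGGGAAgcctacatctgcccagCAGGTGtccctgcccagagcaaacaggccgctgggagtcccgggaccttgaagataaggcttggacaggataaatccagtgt
Prss2, chr6:41521576-41521775, plus strand: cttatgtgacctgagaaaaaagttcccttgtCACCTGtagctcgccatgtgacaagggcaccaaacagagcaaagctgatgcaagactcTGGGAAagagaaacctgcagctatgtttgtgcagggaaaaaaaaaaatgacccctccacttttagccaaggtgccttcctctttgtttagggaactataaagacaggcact
Cela1, chr15:100687921-100688120, minus strand: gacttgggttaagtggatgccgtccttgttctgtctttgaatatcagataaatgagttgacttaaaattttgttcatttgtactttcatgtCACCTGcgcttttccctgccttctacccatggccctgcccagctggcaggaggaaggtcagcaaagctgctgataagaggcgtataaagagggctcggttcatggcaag
Bhlha15, chr5:144190086-144190285, plus strand: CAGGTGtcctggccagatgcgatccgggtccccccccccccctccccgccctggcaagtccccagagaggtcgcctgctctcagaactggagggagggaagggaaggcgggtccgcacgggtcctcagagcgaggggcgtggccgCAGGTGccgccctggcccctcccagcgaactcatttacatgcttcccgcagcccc

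Acinar transcripts were present in every library, at levels that differed strongly between mice of 1 group. The 32 genes together took from 0.0570% of all reads (C57BL/6J, HFD day 33, replicate 2) to 5.95% (BALB/cJ, HFD day 5, replicate 3), with a median of 0.407% over 69 libraries. In the lowest library 3508 of these reads were of Bhlha15, which moved little with the other members (r 0.29). The enzymes alone therefore reach below this lower end. Within single groups the highest library exceeded the lowest by 1.85-fold (C57BL/6J RC day 13) to 24.0-fold (BALB/cJ HFD day 5). Libraries above 1% were found in all strains, 1 of 23 from C57BL/6J, 4 of 22 from DBA/2J and 4 of 24 from BALB/cJ. For comparison, the insulin genes took 11.5 to 23.3% of the reads, and libraries held 12292621 to 34591079 reads. In bulk RNA, fewer acinar cells and less RNA per acinar cell cannot be told apart.

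**Figure D1:**
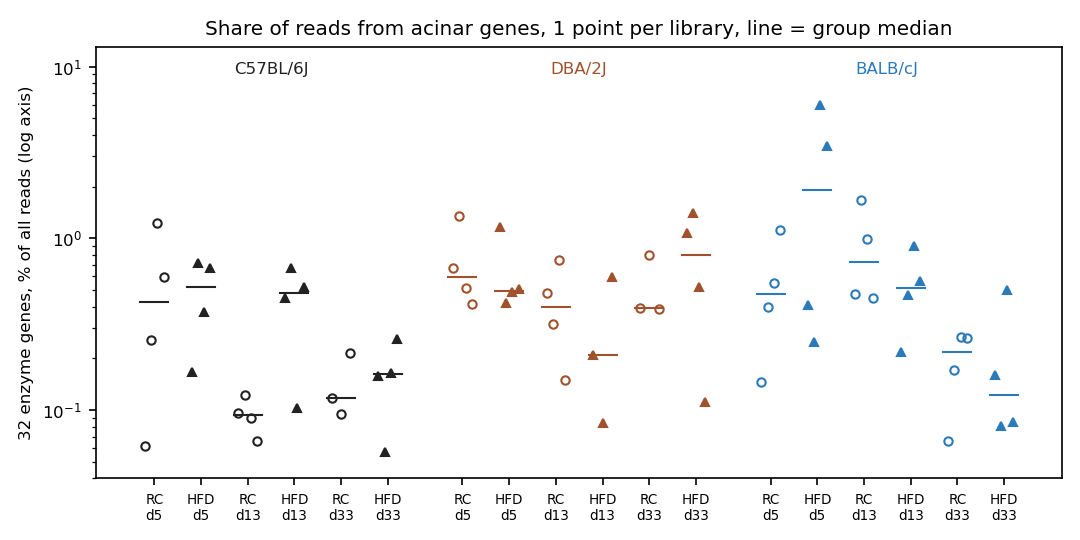
Share of all reads taken by the 32 genes (percent, log axis) in each of 69 libraries, grouped by strain, diet (open circles RC, filled triangles HFD) and day (d), with group medians as lines. The libraries span 0.0570 to 5.95%, and the BALB/cJ HFD day 5 group alone spans 24.0-fold.

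Divided by exon length, the protease precursors and lipases led. Ctrb1, a chymotrypsinogen, had the highest median level over 69 libraries, 523 CPM (reads scaled to a common library total) per kilobase of exon, and ranged over the libraries from 5.37 to 13.02 on the log2 CPM scale. Prss2 followed with 260 CPM per kilobase, Pnlip (pancreatic triglyceride lipase) with 220 and Clps (colipase, the cofactor that anchors lipase to fat droplets) with 176. Cpa1, a carboxypeptidase, reached 172 and Try4, a trypsinogen, 158. At the bottom stood Amy1 at 0.403, Rbpjl at 0.126 and Amy2a5 at 0.0832 CPM per kilobase.

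As shares of the members' own reads, the main enzyme roles had similar medians across strains. Chymotrypsinogens and elastases (6 genes) took a median of 29.4% in C57BL/6J, 29.7% in DBA/2J and 28.2% in BALB/cJ. Lipases and colipase (6 genes) took 26.2%, 27.2% and 28.2%, and trypsinogens (6 genes) 15.4%, 15.7% and 16.2%. Rnase1, the secreted pancreatic ribonuclease, took 2.98%, 3.48% and 2.38%. The amylases, which digest starch, differed more, with medians of 0.171% in C57BL/6J, 0.624% in DBA/2J and 0.713% in BALB/cJ. So did the transcription factors Bhlha15 and Rbpjl together, with 4.64%, 1.98% and 2.48%, and a range over all libraries of 0.245 to 25.2%. Bhlha15 moved little with the other members (slope 0.09), so its share falls where the enzymes are high. Its own median level was lowest in C57BL/6J, at 6.13 log2 CPM, against 6.68 in DBA/2J and 6.99 in BALB/cJ. Amylase levels are uncertain: 42.1% of the 125-base stretches of Amy2a5 transcripts also occur in transcripts of Amy2a1 to Amy2a4 or Amy2b, and 30.3% of those of Amy1 occur in transcripts of Rnpc3, an overlapping gene on the same strand. Amy2b, listed in the annotation as an unprocessed pseudogene, shared 5.58% and carried the highest median CPM of the 3 amylase rows. Shared stretches also link Prss3 to Gm10334, Gm5771 and Prss1 (37.2%), Try4 to Try5 and Try10 (23.2%), Try5 to Try4 (19.3%), and Ctrc and Cela2a to each other (12.0% and 11.6%), while 21 of 32 members shared none. How reads matching several genes were counted is not given in the sources used here.

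The members rose and fell together from mouse to mouse. After each library was centred on its group mean, 28 of 32 members had a Pearson r above 0.9 with the mean log2 level of the other 31 (69 libraries, median r 0.99), and without centring 24 did. Clps, Pnlip and 2210010C04Rik, a trypsinogen-family gene, each had an r of 0.996. The SD within groups was 1.25 on the log2 scale at the median member and 0.18 at the median of all genes, and 30 of 32 members were in the top 1% of all genes by this spread. These correlations describe libraries and share each library's total read count as the denominator.

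Bhlha15 and Amy1 stood apart. Bhlha15 kept a level of 5.40 to 7.44 log2 CPM in all libraries, with an r of 0.29 and a slope of 0.09 on the mean of the other members, and its within-group SD was 0.36. In the library with the most acinar reads it was 7.19, within the range of the others. Amy1 had an r of 0.65, a slope of 0.29 and an SD of 0.53. Prss3 (r 0.82) and Amy2a5 (r 0.87) followed the others more loosely, and their lowest libraries held 0 reads. Rbpjl, in contrast to Bhlha15, followed the enzymes with an r of 0.93 and a slope of 0.91, although its levels rested on 1 to 198 reads per library.

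**Figure D2:**
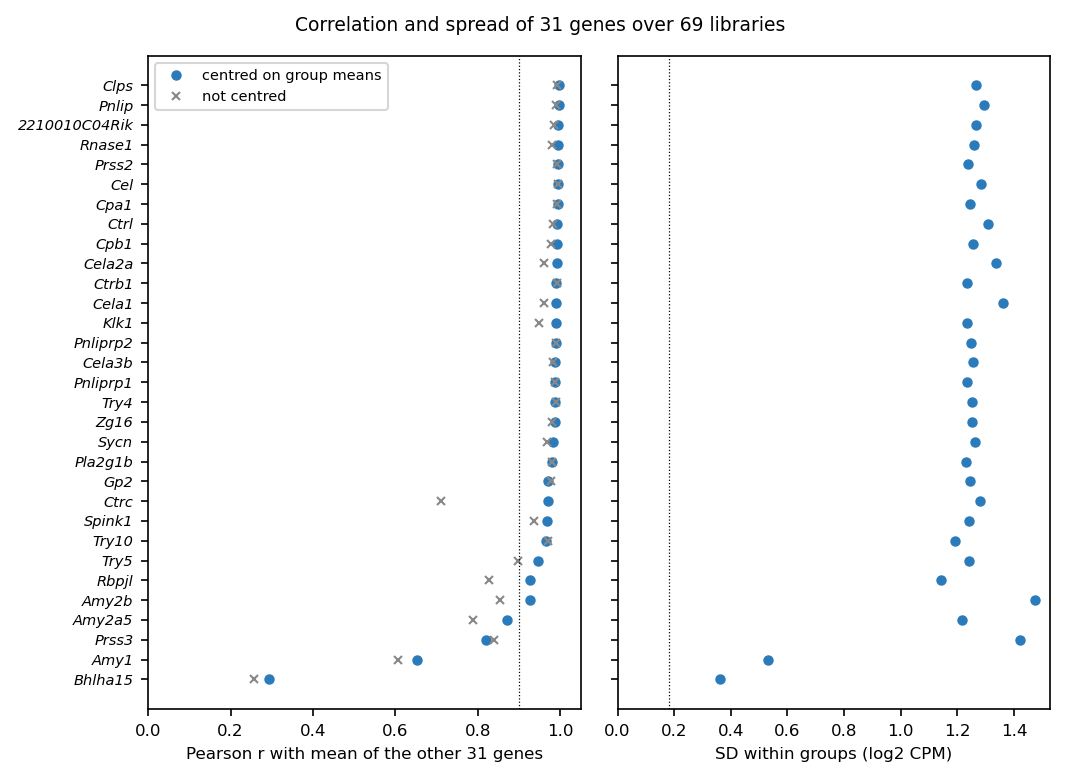
Left, Pearson r of 31 of the 32 genes with the mean of the other members over 69 libraries, centred on group means (dots) or not (crosses), dotted line at 0.9. Right, SD within groups in log2 CPM, dotted line at the median of all genes (0.18). Bhlha15 and Amy1 have the lowest r and the lowest SD, and Ctrc falls to the left only without centring.

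Outside the list, 9 of 14572 other genes reached an r above 0.9 with the mean of the members (the acinar score), and the 10 highest are given here. Cuzd1, a zymogen granule membrane protein, had an r of 0.98, Serpini2, a pancreatic serine protease inhibitor, 0.96, Tff2, a trefoil peptide, 0.96, and Reg1, a secreted regenerating-family protein, 0.95. Erp27 (0.94), an endoplasmic reticulum protein, Aqp12 (0.93), an acinar aquaporin, Reg3d (0.93), Klk1b5 (0.93), Slc39a5 (0.92), a zinc transporter, and Cckar (0.89), the cholecystokinin receptor of acinar cells, completed them. The other acinar genes with a row (14) had a median r of 0.85, and the 4 Reg genes 0.70. Lists of ductal, endothelial, stellate and fibroblast, macrophage, mast cell, lymphocyte, beta cell and other endocrine genes had median r values of -0.24 to 0.15, and none of their genes passed 0.5.

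Strain under regular chow gave the most calls among the members without the score as covariate. Averaged over days, 27 of 32 members were higher and 0 lower in DBA/2J than in C57BL/6J (limma, Benjamini-Hochberg adjusted p under 0.05 over all genes), where 54.5% of all genes were called. Their median difference was 1.67 on the log2 scale, against 0.00 for all genes. In BALB/cJ, 21 of 32 were higher and 0 lower than in C57BL/6J, with 56.3% of all genes called and a median of 1.32. Between BALB/cJ and DBA/2J, 2 members were called, both higher in BALB/cJ, with 35% of all genes called and a median of -0.37. The spread that these p-values measure is that between mice. The members called were 84.4% and 65.6% of 32 against C57BL/6J, and the second of these is near the share of all genes. Members share each library's acinar level, so their common direction is not independent evidence from each gene.

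The counts against C57BL/6J rested in part on day 13. Without day 13, and so with fewer libraries, they fell to 14 and 4, and without C57BL/6J RC day 5 replicate 1 to 23 and 14. The shares of all genes called in these reduced fits are not given here. The C57BL/6J RC day 13 group had the lowest mean acinar score of all 18 groups, 3.30 ± 0.37 (SD, n = 4). Acinar scores nevertheless overlapped: C57BL/6J RC libraries ranged from 2.69 to 6.76 (n = 11), DBA/2J RC libraries from 3.99 to 7.24 (n = 11) and BALB/cJ RC libraries from 3.06 to 7.60 (n = 12).

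By role, all 6 lipase genes were higher than in C57BL/6J in both other strains. Of all genes, 54.5% were called in DBA/2J and 56.3% in BALB/cJ, and members of a role share each library's acinar level. Pnlip had its lowest, median and highest RC library at 6.21, 7.27 and 10.71 log2 CPM in C57BL/6J, at 7.28, 9.09 and 10.73 in DBA/2J and at 6.07, 9.13 and 11.26 in BALB/cJ. The ranges overlap at both ends. Its difference from C57BL/6J was 1.48 ± 0.53 (SE, adjusted p = 0.0153) in DBA/2J and 1.34 ± 0.51 (adjusted p = 0.0231) in BALB/cJ. Without C57BL/6J RC day 5 replicate 1 the latter was 1.06 (adjusted p = 0.0702), and without day 13 it was 0.38 (adjusted p = 0.656). With the number in the sample title as a covariate it was 2.39. The DBA/2J difference was 1.28 (adjusted p = 0.139) without day 13 and 1.36 (adjusted p = 0.0647) without day 33.

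Among chymotrypsinogens and elastases 6 of 6 were higher in DBA/2J and 3 of 6 in BALB/cJ. In these comparisons 54.5% and 56.3% of all genes were called, so the 3 of 6 is near the share of all genes. Ctrb1 had RC libraries at 5.79, 6.76 and 10.09 (lowest, median, highest) in C57BL/6J, 7.31, 9.21 and 10.66 in DBA/2J, and 6.38, 8.89 and 10.75 in BALB/cJ. Of the trypsinogens, 5 of 6 were higher in each, with Try5 the one not called in DBA/2J (1.04 ± 0.51) and 2210010C04Rik the one not called in BALB/cJ (1.10 ± 0.50). Cpa1, a carboxypeptidase that trims amino acids from the ends of peptides, was higher by 1.66 ± 0.51 in DBA/2J, and without day 13 by 1.44 (adjusted p = 0.0804). Rnase1 was higher in DBA/2J by 1.85 ± 0.51 and was not called in BALB/cJ (1.02 ± 0.50). In the group of Spink1, the granule genes Sycn, Gp2 and Zg16 and the kallikrein Klk1, 4 of 5 and 3 of 5 were higher. The 3 of 5 in BALB/cJ is also near the share of all genes. Bhlha15 was higher by 0.58 ± 0.15 in DBA/2J and 0.99 ± 0.14 in BALB/cJ.

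Genes of other cell types also differed between strains, where 54.5% of all genes were called in DBA/2J and 56.3% in BALB/cJ. Of all 14604 genes, 3928 were higher and 4026 lower in DBA/2J, and 4047 higher and 4178 lower in BALB/cJ. The ductal, beta cell, macrophage, other acinar and Reg counts below lie near or below these shares. So do, in DBA/2J, the stellate and fibroblast counts and those of alpha, delta and PP cell genes. Of 9 endothelial genes, 8 were higher in DBA/2J and 7 in BALB/cJ than in C57BL/6J, with group ranges of the mean level of 5.29 to 5.57 in C57BL/6J RC, 5.60 to 6.03 in DBA/2J RC and 5.67 to 6.09 in BALB/cJ RC. Of 11 stellate and fibroblast genes, 3 were higher and 0 lower in DBA/2J, and 8 higher and 1 lower in BALB/cJ. Of 11 ductal genes, 3 were higher and 3 lower, then 6 and 1, and of 10 beta cell genes 3 and 1, then 3 and 2. Of 7 alpha, delta and PP cell genes, 2 and 5 were higher and 0 lower. Both mast cell genes were lower in both strains, with mean levels under RC of 2.44 to 2.84 in C57BL/6J, -0.34 to 0.81 in DBA/2J and 1.01 to 2.12 in BALB/cJ, without overlap. Of 9 macrophage genes, 0 were higher and 5 lower in DBA/2J, and 1 higher and 3 lower in BALB/cJ, and of 3 lymphocyte genes 0 and 1 were lower. Their part in the result was not tested. Of the other acinar genes, 3 of 14 were higher in DBA/2J, including Cuzd1 (1.46 ± 0.49), and 1 was lower, Gatm (-0.45 ± 0.15). In BALB/cJ 4 were higher and 2 lower, including Nr5a2 (0.68 ± 0.15), a nuclear receptor of acinar cells, and Nupr1 (-1.78 ± 0.23), a stress-response gene. Of the 4 Reg genes, 1 was higher in DBA/2J (Reg1, 1.37 ± 0.50) and 0 in BALB/cJ.

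Ctrc, which encodes chymotrypsin C, a protease that degrades trypsinogen, separated C57BL/6J from the other strains without overlap. The C57BL/6J libraries, both diets together, held 2 to 59 Ctrc reads, at -2.61, -0.75 and 1.48 log2 CPM (lowest, median, highest, n = 23). DBA/2J libraries stood at 3.79, 6.39 and 7.97 (n = 22) and BALB/cJ libraries at 2.54, 5.81 and 10.21 (n = 24), with at least 102 reads each. Under RC the difference was 7.41 ± 0.52 in DBA/2J (adjusted p = 9.84e-19) and 6.81 ± 0.51 in BALB/cJ (adjusted p = 1.24e-17). Relative to the mean of the other members, Ctrc lay at -6.33 to -4.20 in C57BL/6J, at 0.11 to 0.99 in DBA/2J and at -0.54 to 0.83 in BALB/cJ. Cela2a, which shares its annotated 3′ end with Ctrc (chr4:141814962-141826160, minus strand; Ctrc chr4:141814962-141846359, minus strand), lay at 4.52 to 9.62 log2 CPM in C57BL/6J, 5.27 to 9.47 in DBA/2J and 4.50 to 11.43 in BALB/cJ, which overlap.

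Amy2b also separated C57BL/6J from DBA/2J. Relative to the mean of the other members it lay at -4.40 to -2.93 in C57BL/6J and at -1.39 to -0.54 in DBA/2J, with no overlap, while BALB/cJ spanned -1.05 to -0.19 under RC and -4.33 to -0.23 under HFD, which overlaps C57BL/6J. Under RC its level was higher than in C57BL/6J by 4.38 ± 0.60 in DBA/2J and 4.48 ± 0.59 in BALB/cJ. Prss3 was higher by 2.80 ± 0.58 and 4.21 ± 0.57, and was also higher in BALB/cJ than in DBA/2J by 1.41 ± 0.57 (adjusted p = 0.0458). That last call was lost in 14 of 69 single-library removals, with differences of 1.11 to 1.65 over all removals. The 14 were DBA/2J RC day 5 replicates 1 and 4, day 13 replicates 2 and 4 and day 33 replicates 1 and 2, and BALB/cJ RC day 5 replicates 2, 3 and 4, day 13 replicates 2 and 3 and day 33 replicates 1, 2 and 3. With voom on whole reads the adjusted p was 0.0828, without day 33 it was 0.0507, and without day 13 the difference was 0.48. Bhlha15 was the other member called between these strains, at 0.41 ± 0.14, and without BALB/cJ RC day 33 replicate 4 it was 0.36 (adjusted p = 0.0512). Without day 5 the Bhlha15 difference was 0.16 (adjusted p = 0.504), without day 13 0.44 (adjusted p = 0.0963) and without day 33 0.63.

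**Figure D3:**
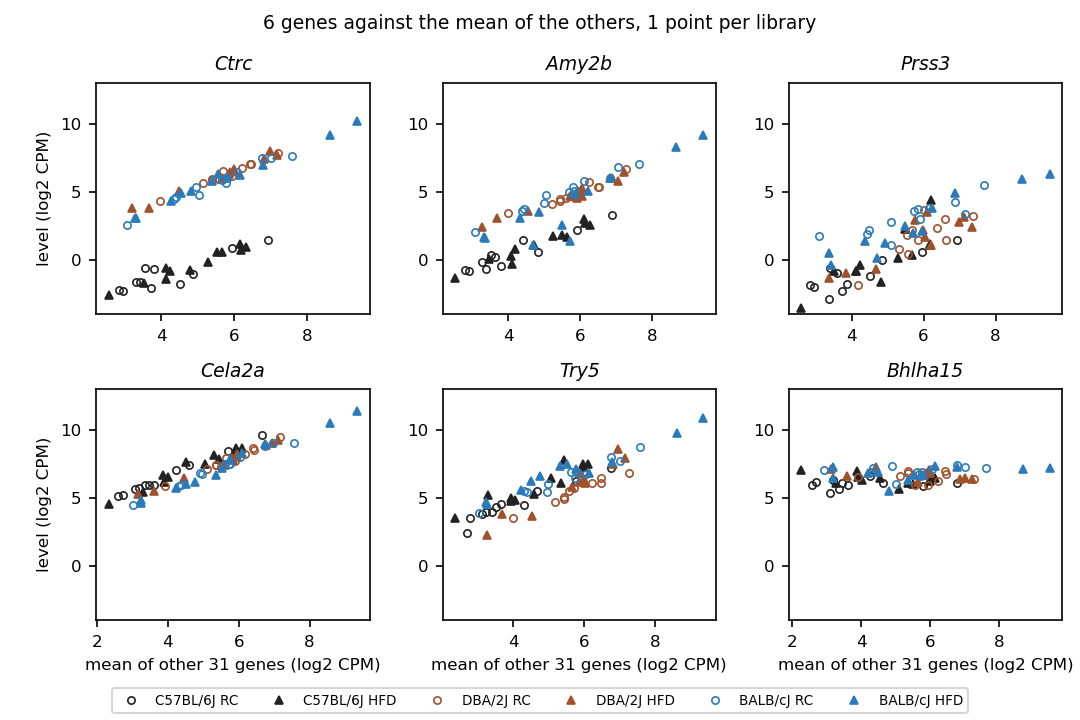
Level of 6 genes (log2 CPM) against the mean of the other 31 genes in each of 69 libraries, coloured by strain, with open circles for RC and triangles for HFD. Ctrc in C57BL/6J forms a line below both other strains without overlap, Amy2b in C57BL/6J lies below DBA/2J but overlaps BALB/cJ HFD libraries, and Bhlha15 stays level.

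To compare members apart from the level they share, the acinar score was entered as a covariate. It contains the members, so a gene that is very low in 1 strain shifts the rest the other way. The member differences at equal score cancel out by construction, so counts of higher and lower members depend on each other. The members called under RC were then 20 between DBA/2J and C57BL/6J (5 higher, 15 lower, with 45% of all genes called), 27 between BALB/cJ and C57BL/6J (6 higher, 21 lower, 49.2%) and 17 between BALB/cJ and DBA/2J (6 higher, 11 lower, 35.4%). With the residual spread reduced, the median SE of a member was 0.09, against 0.51 without the score, in the first of these. The shares of all genes are therefore no like background for these counts. At equal score Ctrc was 5.49 ± 0.14 and 5.14 ± 0.13 higher than in C57BL/6J, Amy2b 2.26 ± 0.25 and 2.64 ± 0.23, and Prss3 0.97 ± 0.36 and 2.62 ± 0.35. The smaller Prss3 difference was lost in 4 of 69 removals (C57BL/6J RC day 5 replicate 3 and day 13 replicate 2, DBA/2J RC day 5 replicate 3 and day 33 replicate 3), with adjusted p up to 0.0799.

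Other genes also differed at equal score, where the large offsets of Ctrc, Amy2b and Prss3 push the rest lower against C57BL/6J. Klk1, a tissue kallikrein, was lower than in C57BL/6J by -1.14 ± 0.09 in DBA/2J and by -0.51 ± 0.08 in BALB/cJ at equal score. Its relative level had medians of 0.00 in C57BL/6J, -0.99 in DBA/2J and -0.37 in BALB/cJ. Try5 was lower in DBA/2J than in C57BL/6J (-0.77 ± 0.18) and higher in BALB/cJ than in DBA/2J (1.17 ± 0.16). Its RC libraries lay at -0.53 to 0.38 in DBA/2J and at 0.45 to 1.28 in BALB/cJ relative to the other members, without overlap. Spink1 was lower in both, by -0.61 ± 0.14 and -1.10 ± 0.14, as were Cela2a (-0.78 ± 0.08 and -1.05 ± 0.07) and Cela1 (-0.65 ± 0.09 and -0.99 ± 0.08). Sycn, the granule protein syncollin, was higher in DBA/2J by 0.49 ± 0.11. Rnase1 was lower in BALB/cJ than in C57BL/6J (-0.67 ± 0.05) and than in DBA/2J (-0.58 ± 0.05), and its -0.08 ± 0.06 between DBA/2J and C57BL/6J was not called.

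No member passed the test for diet over all mice. Averaged over strains and days, 0 of 32 members were called between HFD and RC by limma and 0 by voom, where 5.47% of all genes were, 1 had an unadjusted p under 0.05 and the largest difference was that of Try5 (0.74 ± 0.29, adjusted p = 0.115). The median member differed by 0.18, with a median SE of 0.29. Acinar scores ran from 2.41 to 9.40 under HFD (n = 35) and from 2.69 to 7.60 under RC (n = 34).

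In C57BL/6J the members leaned towards higher levels under HFD, and 1 was called. All 32 differences were positive, with a median of 0.69 and a median SE of 0.50, and 14.6% of all genes were called. That share is no background for the signs, and the share of all genes with a positive difference is not given here. Members share each library's acinar level, so the 32 signs are not independent. Try5 passed the test at 1.43 ± 0.49 (adjusted p = 0.0414), with 3.54, 5.67 and 7.76 log2 CPM (lowest, median, highest) in 12 HFD libraries and 2.41, 4.34 and 7.19 in 11 RC libraries. The ranges overlap. The Try5 call was lost in 13 of 69 removals of 1 library, all from C57BL/6J: HFD day 5 replicates 2 and 4, RC day 5 replicate 1, HFD day 13 replicates 2 and 4, RC day 13 replicates 1, 3 and 4, HFD day 33 replicates 3 and 4 and RC day 33 replicates 1, 2 and 4. The difference over the removals was 1.11 to 1.64. With the number in the sample title as a covariate it was 3.33 (adjusted p = 0.265), without day 5 it was 1.52 (adjusted p = 0.0972) and without day 13 it was 0.86 (adjusted p = 0.446). At day 5 the HFD and RC title numbers of C57BL/6J do not overlap, so diet and title number cannot be told apart there.

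The lean was largest at day 13. In the C57BL/6J day 13 groups the acinar share of reads had a median of 0.0931% under RC (0.0664 to 0.123%) and 0.483% under HFD (0.103 to 0.675%), so that 3 of 4 HFD libraries lay above all RC libraries. The median member was 1.85 higher under HFD with a median SE of 0.84, 24 of 32 had an unadjusted p under 0.05, 0 passed the adjusted test, and 1.04% of all genes did. That share is for the adjusted test and is no background for the 24. The share of all genes at an unadjusted p under 0.05 is not given here. Members share each library's acinar level, so the 24 are not independent results. Sycn, at 2.496 ± 0.85, and Try5, at 2.58 ± 0.83 (adjusted p = 0.0945), had the largest differences. At day 5 the median was 0.30 and at day 33 0.04, with 0 members called, 0 and 1 at an unadjusted p under 0.05, and 1.87% and 0% of all genes called. Stellate and fibroblast genes moved the other way in C57BL/6J, with 8 of 11 lower under HFD over all days, against 1176 of all 14604 genes. At day 13 their mean level was 3.23 to 3.70 under RC and 2.57 to 3.63 under HFD, and their part in the result was not tested.

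In DBA/2J 0 of 32 members and 0% of all genes were called by limma, 0 members had an unadjusted p under 0.05, voom called 0, and the median member was -0.26. By day the medians were -0.12, -0.76 and 0.13 at days 5, 13 and 33, with 0 members called, 0 at an unadjusted p under 0.05, and 0.548%, 0% and 0.0205% of all genes called. In BALB/cJ 0 members and 0.151% of all genes were called by limma, 0 members had an unadjusted p under 0.05, voom called 0, and there was a median of 0.17. By day the medians were 1.41, -0.63 and -0.15, with 7, 1 and 0 members at an unadjusted p under 0.05 and 0.315%, 0.00685% and 0% of all genes called. The shares of all genes refer to the adjusted test, and members share each library's acinar level. The only BALB/cJ call was Amy1 at day 5, at 0.19, 0.37, 0.72 and 1.44 log2 CPM under RC and 1.40, 1.58, 2.44 and 3.29 under HFD, a difference of 1.496 ± 0.37 (adjusted p = 0.0453). This call was lost in 26 of 69 single-library removals, 6 of which were BALB/cJ day 5 libraries (HFD replicates 1 to 3 and RC replicates 1 to 3, differences of 1.12 to 1.76). The other 20 lay in other groups, where the difference stayed at 1.496 and the adjusted p rose to at most 0.0514. With BALB/cJ fitted alone the adjusted p was 0.361, and with array weights 0.066. Without the 2 libraries that held over 2% acinar reads, both of this HFD group, it was 0.81 (adjusted p = 0.259).

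The diet difference itself was compared between strains. It was called for 0 members between DBA/2J and C57BL/6J (1.11% of all genes, median difference -0.97), between BALB/cJ and C57BL/6J (1.27%, -0.52) and between BALB/cJ and DBA/2J (0%, 0.42) by limma, with 1, 3 and 0 members under 0.05 before adjustment, and 0 calls by voom in each. The unequal counts within strains are therefore not shown to reflect different diet responses of these genes.

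**Figure D4:**
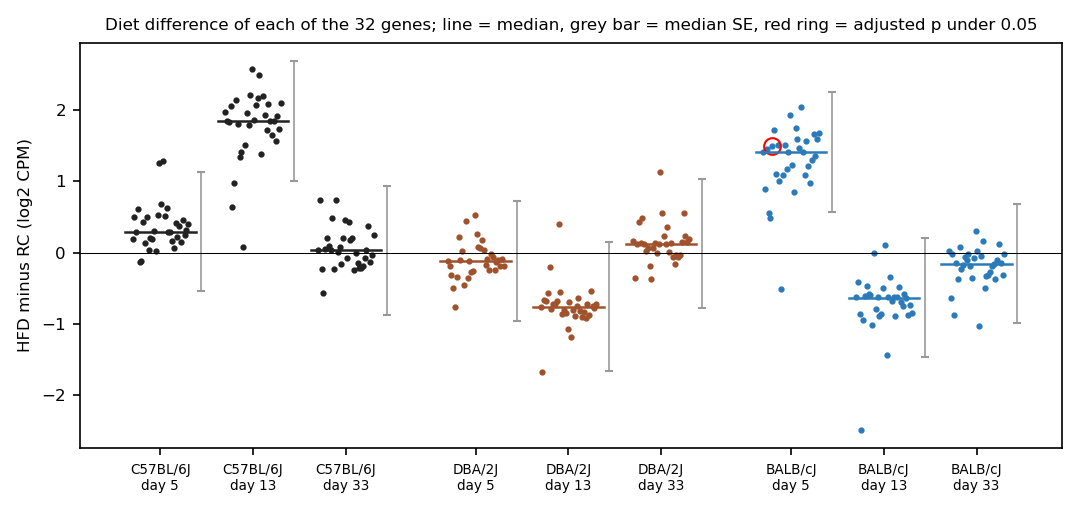
HFD minus RC (log2 CPM) of each of the 32 genes in each strain and day, 1 dot per gene, line at the median, grey bar the median SE around it, red ring a gene with an adjusted p under 0.05. C57BL/6J day 13 (median 1.85) and BALB/cJ day 5 (median 1.41) lie above 0, and 1 dot, Amy1, is ringed.

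With the acinar score as a covariate, a fit chosen after the data were seen, some members were called for diet. In this fit too the member differences cancel out by construction. Averaged over strains, 10 of 32 members were called (6.51% of all genes, against 5.47% without the score). The score takes up spread that members share and most other genes do not, so these shares are no like background. Higher under HFD were the trypsinogens Try5 (0.53 ± 0.09), Try10 (0.24 ± 0.07) and Prss2 (0.15 ± 0.03), the elastase Cela3b (0.17 ± 0.04) and Sycn (0.27 ± 0.05). Lower were Amy2b (-0.40 ± 0.12, from -1.08 in BALB/cJ, -0.16 in C57BL/6J and 0.04 in DBA/2J), Pla2g1b, the pancreatic phospholipase A2 (-0.23 ± 0.06), the chymotrypsin-like gene Ctrl (-0.18 ± 0.04), 2210010C04Rik (-0.17 ± 0.03) and Cela1 (-0.15 ± 0.04). In C57BL/6J 8 members were called (16.1% of all genes), with Try5 at 0.69 ± 0.16 and Sycn at 0.33 ± 0.10 higher, and Klk1 at -0.29 ± 0.08 and Ctrl at -0.29 ± 0.06 lower. In DBA/2J 0 members and 0% of all genes were called.

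In BALB/cJ 3 members were called at equal score (0.185% of all genes): Amy2b at -1.08 ± 0.21 (adjusted p = 0.0071), Cela3b at 0.31 ± 0.07 and Prss2 at 0.23 ± 0.05. Relative to the other members, Amy2b lay between -1.05 and -0.19 in the 12 RC libraries. Under HFD it lay at -2.97, -1.36, -0.23 and -0.39 at day 5, at -3.61, -4.33, -0.81 and -1.12 at day 13, and at -1.25, -1.66, -1.04 and -1.74 at day 33. At day 13 the diets did not overlap. Replicates 1 and 2 of HFD days 5 and 13, 4 libraries whose sample titles carry consecutive numbers, spanned -4.33 to -1.36 and held at least 46 Amy2b reads. The 3 RC libraries with such numbers spanned -0.78 to -0.61. In the same 4 HFD libraries Try5 lay at 1.70 to 2.05, against 0.65 to 1.49 in the other 4 HFD libraries of these days. Without those 4 libraries, a set picked after their Amy2b values were seen, the Amy2b difference was -0.31 (adjusted p = 0.383). With BALB/cJ fitted alone it was -1.11 (adjusted p = 0.116). Without day 5 it was -1.16 (adjusted p = 0.127) and without day 33 -1.31 (adjusted p = 0.0505).

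**Figure D5:**
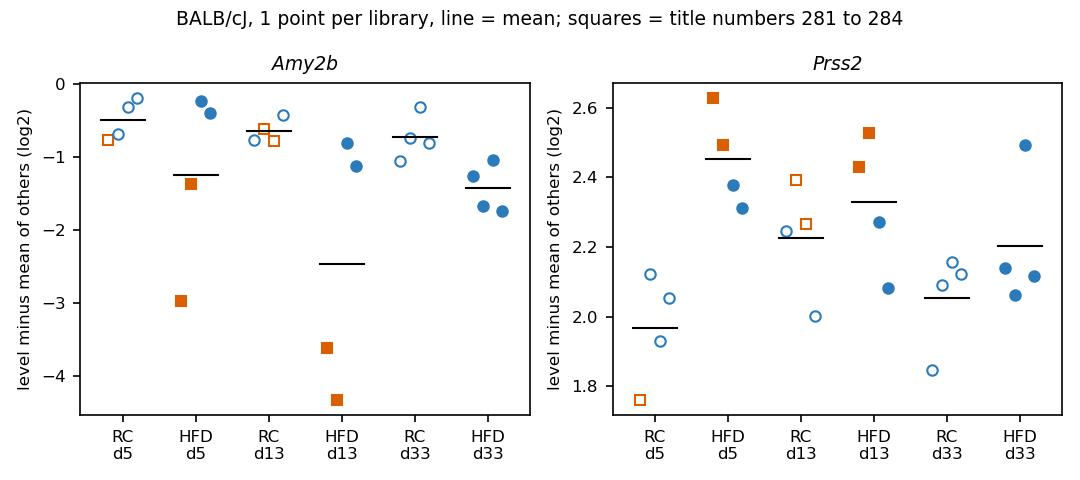
Level of Amy2b and Prss2 minus the mean of the other 31 genes (log2) in each BALB/cJ library by diet and day (d), open symbols RC, filled symbols HFD, lines at group means, squares for the 4 HFD and 3 RC libraries with the consecutive title numbers. The lowest Amy2b values, -4.33 and -3.61, are HFD day 13 libraries, and the RC libraries stay between -1.05 and -0.19.

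Over time under chow, member levels were lower at day 33 than at day 5 in most cases without passing the test. The medians were -1.32 in C57BL/6J, -0.46 in DBA/2J and -1.49 in BALB/cJ, with median SEs of 0.91, 0.91 and 0.84. No member was called by limma in any strain, 2, 1 and 6 had an unadjusted p under 0.05, voom called 0 in each, and 0.123%, 0.00685% and 0.00685% of all genes were. Those shares of all genes refer to the adjusted test. The difference was negative for 31, 31 and 32 of 32 members, and the share of all genes with a negative difference is not given here. Since members share each library's acinar level, these counts do not add up independent observations. In BALB/cJ RC the acinar score ranged from 4.35 to 7.03 at day 5, from 5.78 to 7.60 at day 13 and from 3.06 to 5.03 at day 33.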

How the data were processed

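RNA of mouse islets was sequenced as 125-base single-end reads from stranded mRNA libraries. Per the submitters' processing notes, STAR 2.5.3a, HTSeq 0.9.1, edgeR (no version) and the GRCm38 build were used. The deposited table holds log2 CPM values made by the authors, with 1 value for every gene and library and a floor of -3.54, which is 0.0862 CPM. Whole reads were recovered from these values, giving 12292621 to 34591079 reads per library. Of the lower values, the range that was checked, 100% lay within 0.05 reads of a whole number. Higher values were rounded without this check. Reference annotation was GENCODE M21, and 14589 of 14604 identifiers matched.

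Differences were fitted on the log2 values with limma 3.58.1 (R 4.3.3), with 1 mean per group and an intensity trend, in 69 libraries, and p-values were Benjamini-Hochberg adjusted over all 14604 genes. Differences are on the log2(CPM) scale with the floor above, which understates those of low genes. SE is the moderated standard error. The acinar score is the mean log2 value of the 32 members. The fit was tested on simulated data with known changes. Every member was tested and 1 is not reported here by itself. Also named were the 10 other genes most correlated with the score and up to 4 examples each of the other acinar genes and of the Reg genes. The members and lists were chosen with earlier results of these data known. Of 72 samples, 3 are not analysed here. Groups came from the strain, diet and day labels. Title numbers shared by the HFD and RC mice of a strain and day (21 pairs) were not used as pairs in the main fits, and their meaning is not given. Of 21 pairs, 9 had a correlation of deviations above 0.1 (-0.29 to 0.35, median 0.05). These correlations cannot settle whether the mice were paired. The alternatives were voom on the recovered reads, array weights, each strain alone, other scaling, offset and filter, title number, a replicate block, and leaving out libraries or days. DBA/2J and BALB/cJ reads were compared with a reference made from C57BL/6J, and its part in the strain differences was not tested.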

Additional observations from a re-analysis of the deposited data

Results flagged for a closer look

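In groups of 4 mice, the acinar score, the level of Bhlha15 and the relative levels of Amy2b, Ctrc, Prss3, Try5 and Rbpjl (each minus the mean of the other members, log2) were searched for 1 library far from the other 3. Of 105 group and gene combinations 5 met the criterion, and chance gives about 1 in 20. Prss3 stood at -1.81 in C57BL/6J HFD day 5 replicate 2, against -5.13 to -4.60 in the others of that group. Try5 stood at 1.61 in DBA/2J HFD day 5 replicate 1, against 0.16 to 0.37. Ctrc stood at 0.11 in DBA/2J HFD day 33 replicate 4, against 0.55 to 0.61. Rbpjl stood at -5.08 in C57BL/6J HFD day 5 replicate 3, against -4.32 to -4.23, and at -6.52 in DBA/2J RC day 13 replicate 1, against -5.78 to -5.73.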

How the results depend on the processing

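The strain calls of single members kept their direction in every fit without the score. Called members between DBA/2J and C57BL/6J under RC (27) fell to 14 without day 13 and spanned 23 to 28 over removals of 1 library. Between BALB/cJ and C57BL/6J (21) they fell to 4 without day 13 and spanned 14 to 26. Between BALB/cJ and DBA/2J (2) they were 1 with voom, 1 without day 5, 0 without day 13, 1 without day 33, and 1 to 2 over removals. For diet in C57BL/6J (1) they were 2 with voom, 2 with array weights, 0 with title number as covariate, 0 without day 5, 0 without day 13 and 0 to 2 over removals. Array weights also gave 3 at C57BL/6J day 13, 1 at C57BL/6J day 33, 1 at DBA/2J day 5, 0 at BALB/cJ day 5, 1 for the diet difference between BALB/cJ and C57BL/6J, and, for day 33 against day 5, 2 in C57BL/6J and 1 in DBA/2J. Fitting strains alone gave 1 for that day comparison in DBA/2J and 0 at BALB/cJ day 5, where removals gave 0 to 1. The diet difference between BALB/cJ and C57BL/6J gave 0 to 1 over removals. The share of all genes called in each of these fits is not given here, and the causes were not tested.

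Settings chosen after the data were seen gave further counts, and shares of all genes are given above only for the fits with the score. Without the 2 libraries over 2% acinar reads, 1 member was called for diet in BALB/cJ and 1 for the diet difference between BALB/cJ and C57BL/6J. Without replicates 1 and 2 of BALB/cJ HFD days 5 and 13, 1 was called for average diet and 2 for C57BL/6J diet. With the score as covariate, 10, 8 and 3 were called for average, C57BL/6J and BALB/cJ diet. At equal score, Bhlha15 turned to -1.26 (DBA/2J) and -0.60 (BALB/cJ) against C57BL/6J when its level was taken minus the mean of the other members, a measure that assumes a slope of 1 where Bhlha15 has 0.09. Pnlip between BALB/cJ and DBA/2J turned to -0.0247 with the median as score. The replicate block by title number kept all 117 called member differences (block correlation 0.06). Title number as covariate kept 103 of 117, and voom 112 of 117. Fewer were kept without day 13 (71 of 116), without day 33 (97 of 116) and without day 5 (100 of 116). Shallow rows (Rbpjl, Amy2a5, Prss3, Ctrc in C57BL/6J) rest on few reads.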
